A study of Mus musculus with 29 samples.

Results

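The transcripts of 9 Hedgehog pathway genes, Ptch1, Boc, Cdon, Hhip, Smo, Sufu, Gli1, Gli2 and Gli3, were followed in ribosome-bound RNA of astrocytes and in the fractions it was compared with. They were taken by gene symbol from the authors' table of 36172 gene rows, each symbol matched 1 row, and their counts were scaled to CPM, the counts of a gene per 1000000 counts of its library. In translating ribosome affinity purification (TRAP), an anti-GFP antibody captures ribosomes that carry EGFP-tagged L10a out of homogenized brain. The positive fraction is the RNA on the beads, the negative fraction is the RNA left unbound, and the input is the cleared homogenate before the pull-down. Aldh1l1-NuTRAP mice (Aldh1l1-Cre/Ert2+; NuTRAP+) gave a positive and a negative fraction of 3 animals, mice 290, 293 and 294. Cx3cr1-NuTRAP mice (Cx3cr1-Cre/Ert2+; NuTRAP+) gave positive, negative and input fractions of 6 animals and whole tissue RNA of 5 of these. All mice carried the NuTRAP allele and a tamoxifen-inducible Cre, driven by the Aldh1l1 promoter for astrocytes or from the Cx3cr1 locus for microglia, and all had received tamoxifen at 100 mg/kg on 5 consecutive days at about 3 months of age. Thus the label marks cells in which the driver was active at that time, and the line, the driver and the tagged cell type cannot be told apart when the lines are compared. The study also describes a longer wait between tamoxifen and brain collection for Cx3cr1-NuTRAP mice than in its first tests of the Aldh1l1 line, so the time since tamoxifen may differ between the lines as well. Males and females were used, but the labels do not say which mouse was which. Input and whole tissue of Aldh1l1-NuTRAP mice were not analysed here.

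Hedgehog ligands bind the receptor Ptch1, which in their absence holds the transmembrane protein Smo inactive. Active Smo at the primary cilium releases the Gli transcription factors from processing and from the inhibitor Sufu, and Gli1 and Ptch1 are themselves transcribed in response. In the adult brain neurons are a known source of Sonic hedgehog, and astrocytes are known to respond to it.

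Library totals ranged from 4260949 to 26857866 counts, the lowest being whole tissue of mouse 210, and every member was tested in every comparison. The positive fraction of Aldh1l1-NuTRAP mice was rich in astrocyte RNA by its markers. The summed level of 8 astrocyte markers was 11112 to 18535 CPM, against 2359 to 3159 CPM in the negative fraction, and 8 of 8 were higher. Markers of microglia (8 of 8), neurons (8 of 8), oligodendrocytes (7 of 8) and oligodendrocyte precursors (5 of 6) were lower in the positive than in the negative fraction. Markers of the choroid plexus moved the other way. All 7 of these were higher in the positive fraction, with a summed level of 2946 to 3394 CPM against 502 to 655 CPM, and of 5 tested ependymal markers 3 were higher and 1 lower. Of 7 neurogenic niche markers 2 were higher and 2 lower among 6 tested, no endothelial marker of 8 was called, and of 7 tested pericyte and smooth muscle markers 2 were higher and 2 lower. The smooth muscle marker Acta2 was at 0 counts in all libraries.

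Some libraries stood apart by transcript length. Genes were split into 4 equal bins by transcript length. In the positive fraction of mouse 290, genes in the shortest bin lay 0.52 above the other mice of the group on the log2 scale (median), and genes in the longest bin, of 5057 bases or more, lay 0.38 below. The negative fraction of mouse 290 and the negative fraction of Cx3cr1-NuTRAP mouse 155 were tilted the same way, with longest-bin medians 0.29 and 0.24 below. The other 26 libraries lay between -0.17 and 0.25 in that bin. Ptch1, Cdon, Hhip, Gli2 and Gli3 belong to the longest bin. Mouse 290 had the lowest level of 8 of the 9 members in the positive fraction and of 6 in the negative fraction. Mouse 155 had the lowest level of 7 members in its negative fraction and the highest of 4 (6 with TMM-scaled library sizes) in its positive fraction. The part of this tilt in the values below was not tested, so where a call changed without them that value is given too.

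**Figure D1:**
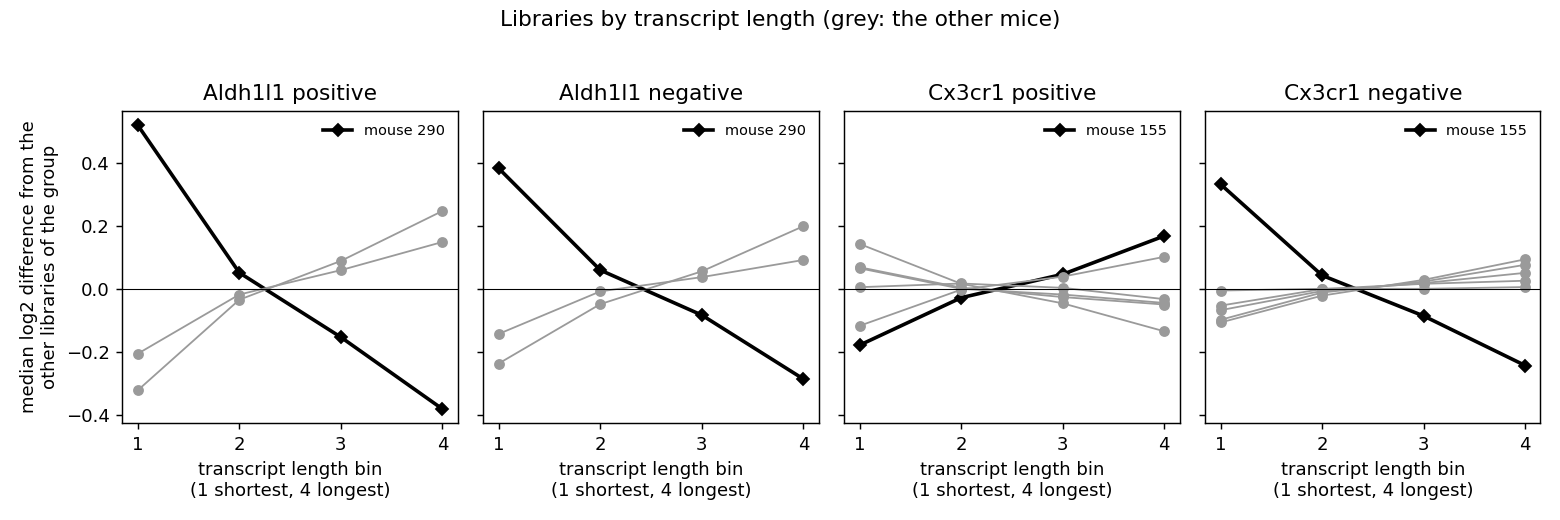
Median log2 difference of each library from the other libraries of its group (vertical axis), for genes in 4 bins of transcript length (horizontal axis), in the positive and negative fractions of both lines. Black diamonds are mouse 290 or mouse 155 and grey points the other mice. The lines of mouse 290 in both fractions and of mouse 155 in the negative fraction fall from short to long transcripts, to -0.38, -0.29 and -0.24, and that of mouse 155 in the positive fraction rises to 0.17.

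The pathway was read in order of its steps, from proteins that bind the ligand to the transcription factors. In the positive against the negative fraction of Aldh1l1-NuTRAP mice, 6 of the 9 genes were higher, 1 was lower and 2 were not called at an adjusted p of 0.05. Over all 13319 genes tested, 26.8% were higher and 24.8% lower. The higher genes were Ptch1, Boc, Smo, Gli1, Gli2 and Gli3, the lower gene was Cdon, and Hhip and Sufu were not called. The median log2 fold change of the 9 was 2.11, beside 0.04 over all genes tested. With the mouse as a block the 6 higher genes and Sufu were higher and Cdon lower, beside 37.0% higher and 33.8% lower of 13319 genes. For Smo, Gli1, Gli2 and Gli3 all 3 positive libraries lay above the 26 other libraries of the study, which held for 13.0% of 14132 genes. For Cdon all 3 lay below the other 26, which held for 28.5%. These levels are scaled by library totals, while the fits use TMM, a scaling that corrects for differences in RNA composition. With TMM-scaled library sizes Smo, Gli1, Gli2 and Gli3 again lay above the other 26 (22.1% of genes), but Cdon overlapped whole tissue, and 0 members lay below all others (16.2%). In these bulk fractions, fewer cells of a type and less RNA per cell cannot be told apart.

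**Figure D2:**
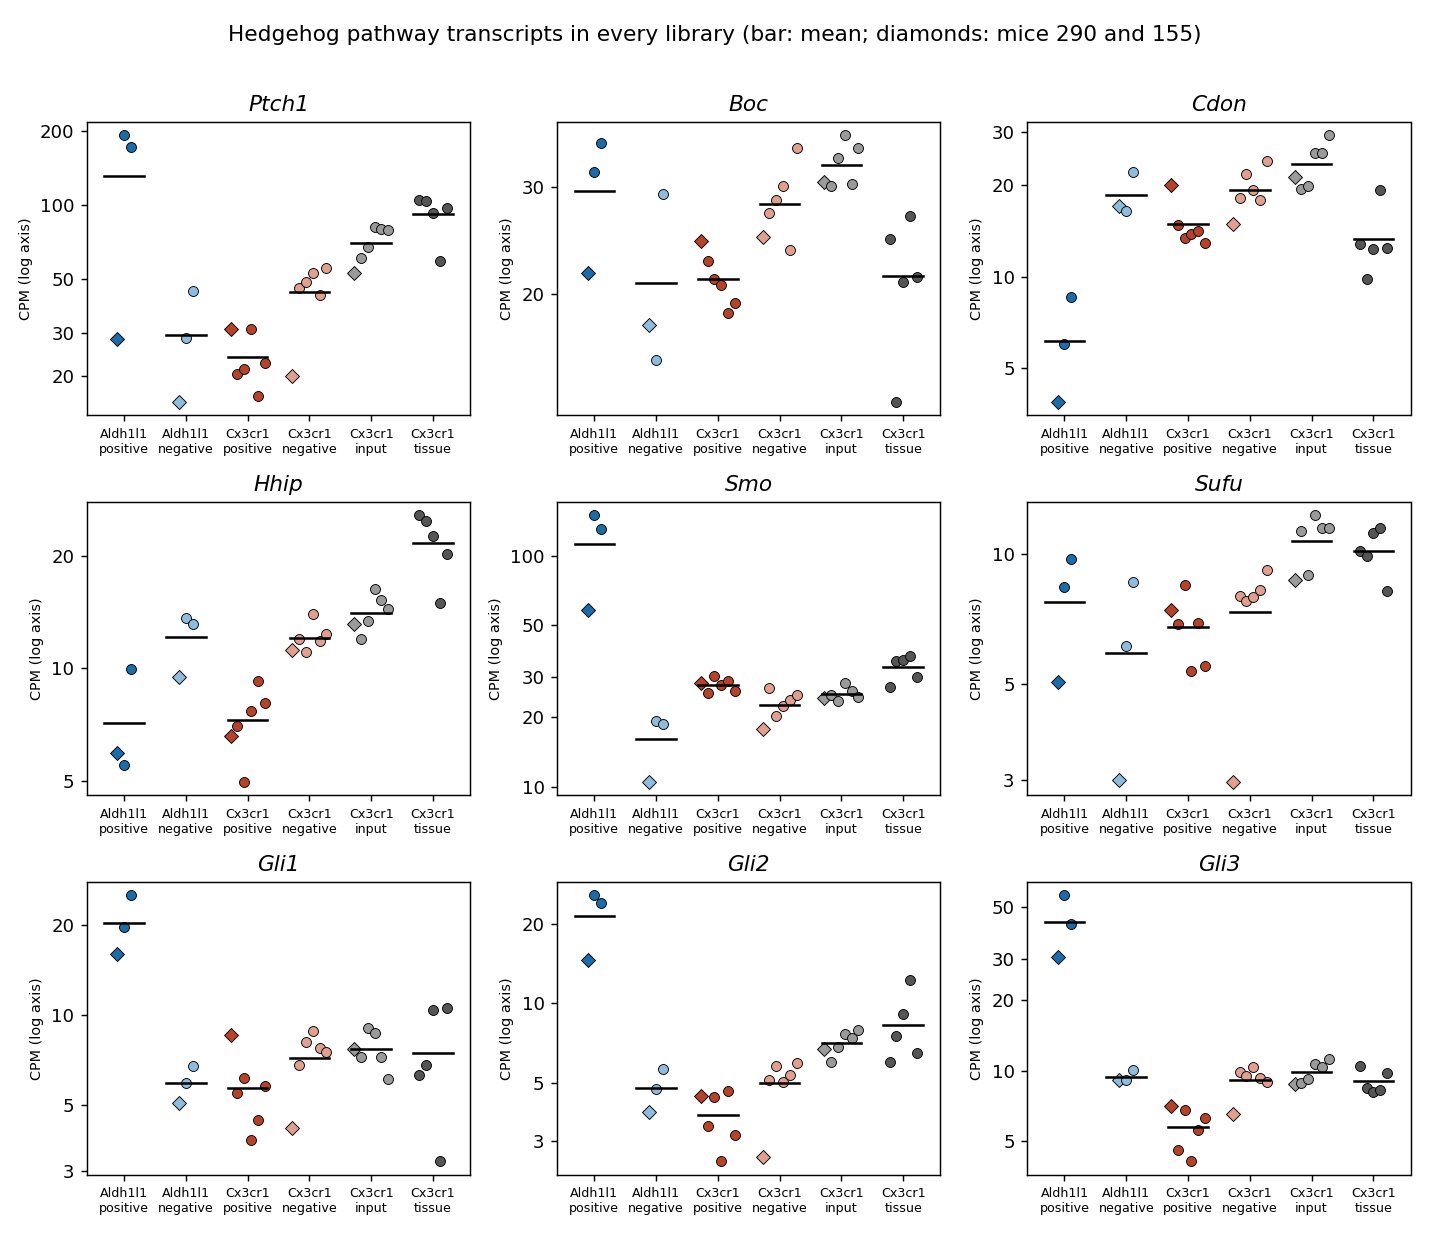
CPM (vertical log axes) of the 9 genes in each of the 29 libraries, by group (horizontal axis). Points are libraries, diamonds are mice 290 and 155, and bars are group means. Smo, Gli1, Gli2 and Gli3 are highest in the 3 Aldh1l1 positive libraries, Cdon is lowest there by these library-total levels, and Ptch1 splits into 28.3 CPM in mouse 290 and 192 and 172 CPM in the other mice.

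Ptch1 (Entrez 19206, mm10 chr13:63511533-63565520, minus strand), the Hedgehog receptor and itself a target of the pathway, split the mice of this fraction. Its level in the positive fraction was 28.3 CPM in mouse 290, 192 CPM in mouse 293 and 172 CPM in mouse 294. In the negative fraction it was 15.7, 28.7 and 44.4 CPM in the same order. Mouse 290 was thus far below the other mice, and its positive library lay within the range of the negative libraries, although within each mouse the positive fraction was the higher, by 1.80 to 6.70 times. The log2 fold change was 2.48 (SE 0.68, adjusted p = 0.0188, edgeR quasi-likelihood test). Without mouse 290 it was 2.63 (SE 0.21, adjusted p = 6.84e-05). Without mouse 293 it was 2.02 (adjusted p = 0.123) and without mouse 294 it was 2.62 (adjusted p = 0.057). In the unpaired fit the call thus needed both of these mice, and it was kept with the mouse as a block. The positive library of mouse 290 lay 2.54 below the other mice for Ptch1 on the log2 scale, beside the 0.38 of the longest transcripts.

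Boc (Entrez 117606, chr16:44485045-44558870, minus strand) and Cdon (Entrez 57810, chr9:35452076-35507652, plus strand) are related cell surface coreceptors that bind Hedgehog ligands. Boc was at 21.7, 31.7 and 35.4 CPM in the positive and 17.8, 15.6 and 29.2 CPM in the negative fraction of mice 290, 293 and 294. By library totals the ranges overlapped, with a fold within a mouse of 1.21 to 2.02. With TMM-scaled library sizes they did not overlap, and the fold was 1.58 to 2.66. By that scaling all 3 positive libraries lay above all negative libraries in 31.2% of 14132 genes. Boc rose by 0.84 on the log2 scale (SE 0.28, adjusted p = 0.0399), and this call was lost without mouse 293 (0.60, adjusted p = 0.262), with scaling by library totals alone (0.50, adjusted p = 0.183) and when at least 100 counts were required (adjusted p = 0.0578). The Boc call was kept with the mouse as a block. Cdon went the other way. It was at 3.86, 6.00 and 8.59 CPM in the positive and 17.1, 16.5 and 22.1 CPM in the negative fraction, with no overlap between the fractions. By library totals all 3 positive libraries lay below all negative libraries in 41.9% of 14132 genes and above them in 20.2%. With TMM-scaled library sizes these shares were 28.5% and 31.2%, and Cdon again lay below without overlap. Cdon was lower by a log2 fold change of -1.24 (SE 0.29, adjusted p = 0.0103), and in each mouse its positive level was 0.23 to 0.39 times the negative (0.299 to 0.508 with TMM-scaled library sizes). Without mouse 293 the value was -1.32 and its adjusted p was 0.0673.

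Hhip (Entrez 15245, chr8:79965851-80058008, minus strand) encodes a membrane protein that binds Hedgehog ligands and limits their action. Its level was 5.96, 5.51 and 9.94 CPM in the positive and 9.51, 13.7 and 13.2 CPM in the negative fraction. By library totals the positive level was the lower in all 3 mice, at 0.40 to 0.75 times the negative, while the group ranges overlapped. With TMM-scaled library sizes it was 0.531 to 0.984 times the negative, so the highest ratio was near 1. The log2 fold change of -0.42 (SE 0.28) did not pass the test (adjusted p = 0.245).

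Smo (Entrez 319757, chr6:29735497-29761366, plus strand), the transmembrane protein that carries the signal on from Ptch1, had the largest fold change of the 9 genes in this comparison. It was at 58.1, 150 and 131 CPM in the positive and 10.5, 19.2 and 18.8 CPM in the negative fraction. The lowest positive library was 5.51 times its own negative library and the other mice were above that, up to 7.80 times. With TMM-scaled library sizes the folds were 7.34 to 10.3. Its log2 fold change was 3.14 (SE 0.39, adjusted p = 0.00061). Sufu (Entrez 24069, chr19:46396918-46486660, plus strand), which binds Gli proteins and keeps them inactive, showed a small difference. Its level was 5.06, 8.39 and 9.72 CPM in the positive and 2.99, 6.11 and 8.62 CPM in the negative fraction, with wide overlap. Both fractions rank the 3 mice alike for Sufu, and the positive level was the higher in each mouse, by 1.13 to 1.69 times. The unpaired log2 fold change was 0.72 (SE 0.40, adjusted p = 0.166). With the mouse as a block it was 0.77 (adjusted p = 0.00869), which passed, as did the fit without mouse 290 (0.62, adjusted p = 0.0303).

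Gli1, Gli2 and Gli3 are the zinc finger transcription factors at the end of the pathway, of which Gli1 acts as an activator and Gli3 largely as a repressor. Gli1 (Entrez 14632, chr10:127329882-127341579, minus strand) was at 16.0, 19.7 and 25.2 CPM in the positive and 5.08, 5.93 and 6.74 CPM in the negative fraction. The fold within a mouse was narrow, 3.15 to 3.75 by library totals and 4.14 to 4.87 with TMM-scaled library sizes, and the log2 fold change was 2.11 (SE 0.22, adjusted p = 0.000277). Gli1 shares 62 exon bases with Arhgap9 and 265 with the antisense transcript Gm47200 on the opposite strand, and per the study's methods reads were aligned by strand and kept only in the right orientation. Gli2 (Entrez 14633, chr1:118834061-119053619, minus strand) was at 14.6, 25.8 and 24.1 CPM in the positive and 3.88, 4.73 and 5.65 CPM in the negative fraction. Its log2 fold change was 2.51 (SE 0.27, adjusted p = 0.000308). Gli3 (Entrez 14634, chr13:15463723-15730025, plus strand) was at 30.6, 56.5 and 42.4 CPM in the positive and 9.11, 9.07 and 10.1 CPM in the negative fraction. Gli3 thus varied little among the negative and more among the positive libraries. Its log2 fold change was 2.54 (SE 0.24, adjusted p = 0.000202). For Smo, Gli1, Gli2 and Gli3 the call was kept without each of the 3 mice in turn. Scaling by library totals alone moved the median of all genes from 0.04 to -0.31 in this comparison and turned the direction of no member.

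Levels can be set side by side between genes only per length of transcript. Per kilobase of exon, Smo was the highest member in the Aldh1l1 positive fraction, at 20.1 ± 8.62 CPM per kb (SD, n = 3), followed by Ptch1 at 9.21 ± 6.29, Boc at 6.64 ± 1.59, Gli3 at 4.50 ± 1.36, Gli1 at 4.07 ± 0.93 and Gli2 at 3.13 ± 0.88 CPM per kb. The spreads of neighbours in this order overlapped. Sufu, at 1.00 ± 0.31, Cdon, at 0.80 ± 0.31, and Hhip, at 0.79 ± 0.27 CPM per kb, were the lowest. In the Cx3cr1 positive fraction Smo was again first, at 4.91 ± 0.31 CPM per kb (SD, n = 6), with Boc beside it at 4.76 ± 0.48 and the Gli factors between 0.55 and 1.14 CPM per kb. That fraction also held neuronal markers at a sum of 5322 to 8164 CPM, beside 7469 to 7800 CPM in its input. The part of RNA from other cells in these levels was not tested.

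**Figure D3:**
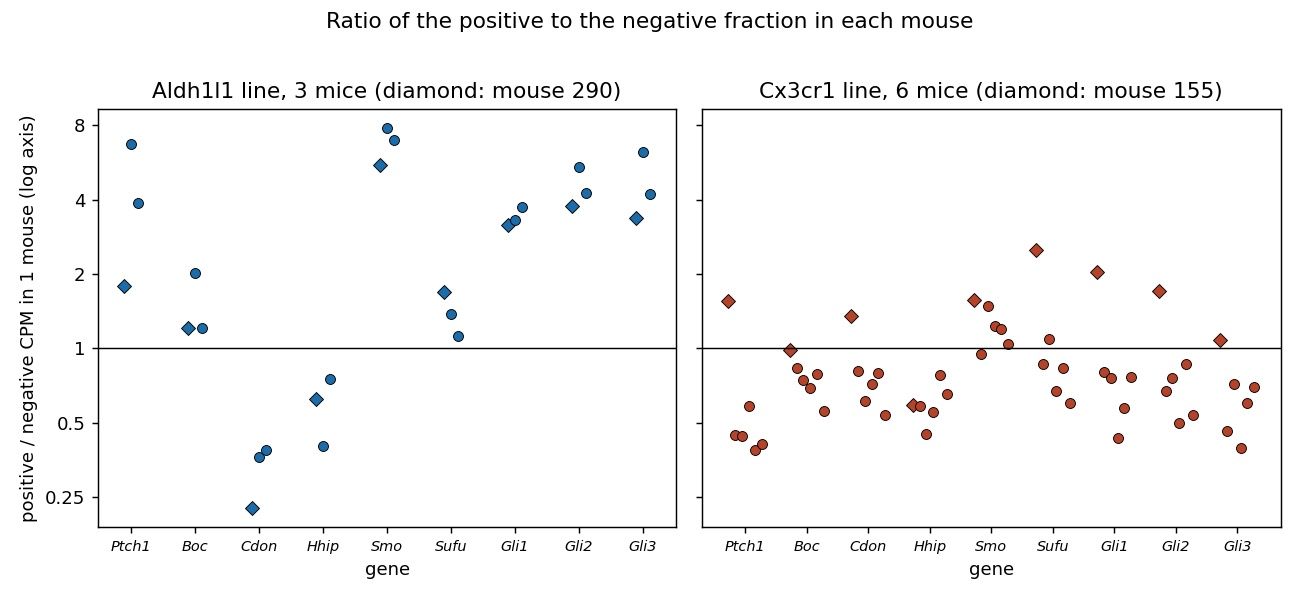
Ratio of the CPM in the positive to that in the negative fraction of the same mouse (vertical log axis) for the 9 genes (horizontal axis), in 3 Aldh1l1-NuTRAP and 6 Cx3cr1-NuTRAP mice. Each point is a mouse and diamonds are mice 290 and 155. By these library-total levels, all mice of the Aldh1l1 line lie above 1 for Ptch1, Boc, Smo, Sufu and the Gli factors and below 1 for Cdon and Hhip. In the Cx3cr1 line most points lie below 1 except for Smo.

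The astrocyte-tagged fraction was then compared with the microglia-tagged fraction of the other line. The same 6 genes were higher and the same gene was lower in the Aldh1l1 positive than in the Cx3cr1 positive fraction, where 30.6% of 13676 genes were higher and 33.1% lower. These comparisons share the 3 Aldh1l1 positive libraries, so their values are given side by side and not as separate evidence. Marker lists differed as well. Those of astrocytes (8 of 8) and choroid plexus (7 of 7) were higher in the Aldh1l1 positive fraction, and those of microglia (8 of 8), neurons (8 of 8), oligodendrocytes (7 of 8, with 1 higher) and their precursors (5 of 6) were lower. Of 5 tested ependymal markers 3 were higher and 1 lower. Neuronal markers summed to 5322 to 8164 CPM in the Cx3cr1 positive fraction, beside 7469 to 7800 CPM in its input. The part of these markers in the values was not tested. Gli3 differed most. Its level in the 6 Cx3cr1 positive libraries had a lowest value of 4.08, a median of 5.93 and a highest value of 7.04 CPM, below all Aldh1l1 positive libraries, and its log2 fold change was 3.22 (SE 0.22, adjusted p = 4.97e-07). Gli2 had a lowest value of 2.51, a median of 3.92 and a highest value of 4.65 CPM in the Cx3cr1 positive fraction, again with no overlap, and a log2 fold change of 2.81 (SE 0.24, adjusted p = 1.99e-06).

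Ptch1 was at 16.6, 22.03 and 31.1 CPM (lowest, median and highest) in the Cx3cr1 positive fraction. The positive library of mouse 290, at 28.3 CPM, fell within that range, and with TMM-scaled library sizes it lay above it (38.7 against at most 31.4 CPM). The log2 fold change of Ptch1 was 2.75 (SE 0.43, adjusted p = 0.000217), and 3.21 without mouse 290. Smo was at 25.4, 27.9 and 30.03 CPM, and its log2 fold change was 2.34 (SE 0.22, adjusted p = 5.12e-06). Gli1 was at 3.83, 5.63 and 8.57 CPM, with a log2 fold change of 2.13 (SE 0.25, adjusted p = 2.26e-05). These genes, the receptor, the transducer and the target factor, all lay higher in the astrocyte-tagged RNA by 4.39 to 6.73 times.

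The coreceptors again split. Boc was at 18.6, 21.0 and 24.5 CPM in the Cx3cr1 positive fraction and higher in the Aldh1l1 positive fraction by a log2 fold change of 0.79 (SE 0.16, adjusted p = 0.00152). Mouse 290 overlapped by library totals and not with TMM-scaled library sizes (29.6 against at most 24.7 CPM). Cdon was at 12.9, 14.0 and 20.1 CPM, above all Aldh1l1 positive libraries, with a log2 fold change of -0.96 (SE 0.25, adjusted p = 0.00596). With mice 155 and 290 both left out, an alternative chosen after seeing the data, the value for Cdon was -0.62 (adjusted p = 0.0149). Hhip, at 4.98, 7.37 and 9.26 CPM, and Sufu, at 5.36, 6.90 and 8.48 CPM, overlapped the Aldh1l1 positive libraries. Neither passed, with log2 fold changes of 0.29 (SE 0.23, adjusted p = 0.294) and 0.50 (SE 0.24, adjusted p = 0.0831), and the Sufu call depended on the fit. Sufu passed with DESeq2 (0.57, adjusted p = 0.0294), with median-of-ratios scaling (0.56), with all 6 groups in 1 fit (0.60), without mouse 194 (0.59) or 290 (0.70), and with mice 155 and 290 left out (0.74, adjusted p = 0.0202).

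**Figure D4:**
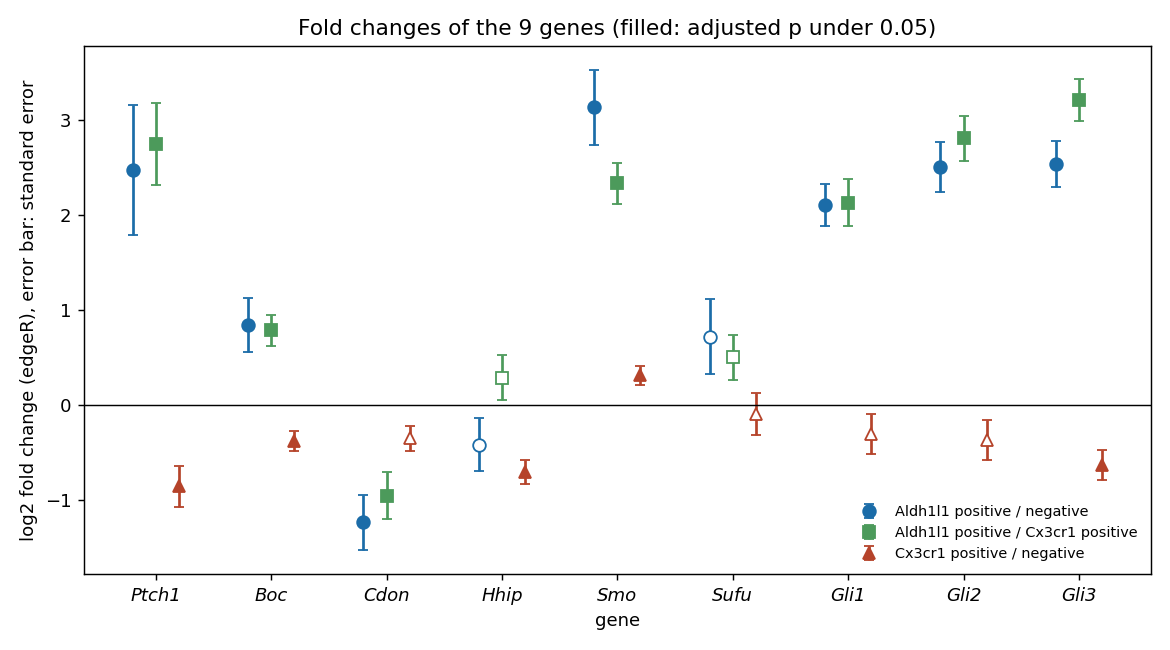
log2 fold change (vertical axis) of the 9 genes (horizontal axis) with its standard error, for 3 comparisons shown by colour and shape. Filled points passed an adjusted p of 0.05. Smo, Ptch1 and the Gli factors lie between 2.11 and 3.22 in both comparisons of the Aldh1l1 positive fraction, Cdon lies below 0 in both, and the Cx3cr1 values lie between -0.86 and 0.31.

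The same contrast of positive with negative fraction in Cx3cr1-NuTRAP mice gave smaller values. Of the 9 genes 1 was higher, Smo, and 4 were lower, Ptch1, Boc, Hhip and Gli3, beside 12.8% higher and 11.6% lower of 13776 genes. Ptch1 was at 20.03, 47.0 and 55.2 CPM (lowest, median and highest) in the negative fraction, where its lowest library was mouse 155 and overlapped the positive fraction. It fell by 0.86 on the log2 scale (SE 0.22, adjusted p = 0.0111). Without mouse 155 the value was -1.10, and without mouse 192, 194 or 277 the adjusted p was between 0.0538 and 0.065. Hhip was at 11.1, 11.9 and 13.9 CPM in the negative fraction, above all positive libraries. It fell by 0.70 (SE 0.13, adjusted p = 0.00127), and of the 5 called genes it was the one that passed without each mouse in turn.

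Gli3 was at 6.53, 9.40 and 10.3 CPM in the negative fraction, with mouse 155 again the lowest. It fell by 0.63 on the log2 scale (SE 0.16, adjusted p = 0.0105), and its adjusted p was 0.0754 without mouse 192. Boc was at 23.6, 27.8 and 34.8 CPM in the negative fraction and fell by 0.38 (SE 0.11, adjusted p = 0.0206), with an adjusted p of 0.0544 with the mouse as a block. Its adjusted p was 0.0617 to 0.0948 without mouse 192, 194, 209 or 277. Smo was at 17.8, 23.2 and 26.7 CPM and rose by 0.31 (SE 0.097, adjusted p = 0.0318), which did not pass with the block (adjusted p = 0.0884) or without mouse 155, 194, 209 or 210 (adjusted p = 0.0522 to 0.134). Cdon (-0.35, adjusted p = 0.0715), Sufu (-0.09), Gli1 (-0.31) and Gli2 (-0.37) did not pass. Without mouse 155, Cdon, Gli1 and Gli2 also passed, at log2 values of -0.53, -0.58 and -0.55, which made 7 lower genes, in a fit where 15.7% of 13904 genes were lower. Markers of other cell types moved in this comparison too. Those of microglia were higher (8 of 8), and those of astrocytes (6 of 8), oligodendrocytes (7 of 8) and oligodendrocyte precursors (5 of 6) were lower in the positive fraction. Their part in the result was not tested.

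Whether the ratio of positive to negative fraction differed between the lines was tested itself, as the interaction of line and fraction. It was higher in the Aldh1l1 line for the same 6 genes and lower for Cdon, beside 25.5% higher and 29.9% lower of 13983 genes. The difference on the log2 scale was largest for Ptch1 (3.28, SE 0.62, adjusted p = 0.000193), Gli3 (3.13, SE 0.28, adjusted p = 4.07e-08), Gli2 (2.83, SE 0.35, adjusted p = 2.3e-06) and Smo (2.78, SE 0.32, adjusted p = 7.14e-07). It was 2.37 for Gli1 (SE 0.35, adjusted p = 1.34e-05), 1.18 for Boc (SE 0.26, adjusted p = 0.000883) and -0.93 for Cdon (SE 0.29, adjusted p = 0.0116). For Cdon it was -0.56 (adjusted p = 0.0469) with mice 155 and 290 left out. The values for Sufu (0.76, adjusted p = 0.151) and Hhip (0.24, adjusted p = 0.447) did not pass, and Sufu passed without mouse 155 (0.95, adjusted p = 0.0402) and with both mice left out (0.89, adjusted p = 0.013). Markers differed the same way between the lines, with astrocyte (8 of 8) and choroid plexus markers (7 of 7) higher and microglia (8 of 8), neuron (8 of 8) and oligodendrocyte (7 of 8, with 1 higher) and oligodendrocyte precursor markers (5 of 6) lower. Of 6 tested ependymal markers 3 were higher and 1 lower, and the markers' part in these values was not tested. In this test the median of all genes was -0.11, and -0.38 with library totals alone.

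The negative fractions of both lines, the closest to bulk RNA that both lines have, gave no member past the threshold, beside 0.125% of 13613 genes higher and 0.125% lower. By edgeR's quasi-likelihood test 1 member, Smo, had an unadjusted p under 0.05 (log2 fold change -0.44, SE 0.18, adjusted p = 0.324), and DESeq2 called 0. Without mice 155 and 290 no member passed either, while the shares of all genes were 6.18% higher and 5.4% lower of 14013. They were 1.88% and 1.92% with DESeq2, and 0 genes passed without mouse 293. The other log2 values lay between -0.53 for Ptch1 and 0.09 for Gli3.

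Within Cx3cr1-NuTRAP mice the steps from tissue to beads could be followed for the same genes. In the positive fraction against input 7 of the 9 genes were lower and none was higher, beside 25.6% lower and 23.3% higher of 13838 genes, and no member was higher at an unadjusted p under 0.05 or by DESeq2. Ptch1 was at 52.7, 73.1 and 81.2 CPM (lowest, median and highest) in the input, above all positive libraries, and fell by 1.54 on the log2 scale (SE 0.16, adjusted p = 6.1e-06). Hhip fell by 0.94, Gli2 by 0.89 and Gli3 by 0.76, with adjusted p of 0.000776 or less, and Boc, Cdon and Sufu by 0.60 to 0.65, with adjusted p of 0.00192 or less. Smo (0.15, adjusted p = 0.099, and 0.0349 when at least 100 counts were required) and Gli1 (-0.41, adjusted p = 0.0756) did not pass, and Gli1 passed without mouse 155 (-0.57, adjusted p = 0.0138). Astrocyte markers moved with these genes. Their summed level was 2076 to 3134 CPM in the positive fraction and 3273 to 3746 CPM in the input, and 5 of 8 were lower, as were 7 of 8 oligodendrocyte, 5 of 6 oligodendrocyte precursor and 3 of 7 choroid plexus markers, while 8 of 8 microglia markers were higher. In the same order, endothelial markers summed to 82.5 to 195 and 94.9 to 110 CPM. Pericyte and smooth muscle markers summed to 73.5 to 133 and 128 to 141 CPM, and neurogenic niche markers to 83.5 to 93.9 and 97.2 to 109 CPM. Their part in the result was not tested.

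In the negative fraction against input, Ptch1 alone passed, lower by 0.66 on the log2 scale (SE 0.18, adjusted p = 0.0478), beside 4.7% lower and 1.41% higher of 13748 genes. This count depended on the fit. It was 6 with the mouse as a block, in which Boc, Cdon, Hhip, Sufu and Gli2 passed as well, 3 with DESeq2 and 3 without mouse 155, and 0 without any other single mouse. The share of all genes called lower moved with it, to 19.5% with the block, 9.38% with DESeq2 and 14.8% without mouse 155. It was 0% without any other single mouse.

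Input against whole tissue compared cleared homogenate from 6 brains with conventionally isolated RNA of 5 of them, all but mouse 155. Cdon and Boc were higher in the input and Hhip, Smo and Ptch1 were lower, beside 15.7% higher and 14.6% lower of 13608 genes. Cdon was at 19.4, 23.4 and 29.3 CPM (lowest, median and highest) in the input and at 12.9, 9.81, 12.3, 19.3 and 12.5 CPM in whole tissue of mice 192, 194, 209, 210 and 277. All 6 input libraries lay above all whole tissue libraries, of which mouse 210 came closest. Cdon rose by 0.87 (SE 0.15, adjusted p = 0.000684) and Boc by 0.62 (SE 0.14, adjusted p = 0.00375). Hhip was at 12.0, 13.9 and 16.3 CPM in the input and at 25.7, 24.8, 22.6, 14.9 and 20.2 CPM in whole tissue, where mouse 210, the shallowest library, was the lowest. Hhip fell by 0.66 (SE 0.12, adjusted p = 0.00116), Smo by 0.38 (SE 0.086, adjusted p = 0.00391, and 0.0663 with all 6 groups in 1 fit) and Ptch1 by 0.41 (SE 0.15, adjusted p = 0.0491). For Ptch1 the call was kept in 1 of 6 fits without a mouse, that without mouse 210 (-0.55, adjusted p = 0.00259). It was lost without each of the other mice (adjusted p = 0.0797 to 0.206) and with the mouse as a block (-0.32, adjusted p = 0.179). Endothelial markers were lower in the input (8 of 8, median log2 fold change -1.31), at a sum of 94.9 to 110.2 CPM against 152 to 282 CPM in whole tissue, and 6 of 7 tested pericyte and smooth muscle markers were lower (median -1.10). Oligodendrocyte markers summed to 4529 to 5202 CPM in the input and 6348 to 8628 CPM in whole tissue, and neuronal markers to 7469 to 7800 and 6073 to 7361 CPM. In the same order, astrocyte markers summed to 3273 to 3746 and 3602 to 3973 CPM, and choroid plexus markers to 853 to 1025 and 225 to 1014 CPM. Their part in these differences was not tested.

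In 5 lists with 45 further pathway genes in the table, 37 were tested in the positive against the negative fraction of Aldh1l1-NuTRAP mice, and 12 were higher, 12 lower and 13 not called, with a median log2 fold change of -0.19. These shares lay near the 26.8% higher and 24.8% lower of all genes, as a background that also holds for each list below. Of the ligands, Shh was at 1.95, 1.97 and 3.18 CPM (lowest, median and highest) in the positive and 4.57, 7.85 and 9.99 CPM in the negative fraction, with no overlap. Shh fell by 1.30 on the log2 scale (SE 0.35, adjusted p = 0.0175). Ihh and Dhh stayed at or under 0.59 CPM in both fractions, at most 14 counts in a library, and were not tested. Scube1, whose secreted product is related to a factor that helps release the ligand, fell by 1.43 (SE 0.38, adjusted p = 0.0159), and Disp1, which exports the ligand from the cell, rose, so of 4 tested genes for ligands and their release 1 rose and 2 fell.

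Among other genes of ligand reception, 2 of 4 tested rose and 1 fell. Gas1, a further coreceptor anchored in the membrane, was at 65.9, 76.7 and 95.2 CPM in the positive and 10.1, 12.2 and 13.8 CPM in the negative fraction. Its log2 fold change was 3.07 (SE 0.21, adjusted p = 6.36e-05). Gpc5, a glypican, had a mean of 297 ± 20.3 CPM against 40.5 ± 10.8 CPM (SD, n = 3) and a log2 fold change of 3.22 (SE 0.25, adjusted p = 9.12e-05). Gas1 and Gpc5 were thus on the side of Boc and opposite to Cdon and Gpc3, which was lower.

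Of 12 tested genes of the cilium and of transduction there, 4 rose and 3 fell. Evc, a ciliary membrane protein that acts beside Smo, rose by 2.81 on the log2 scale (SE 0.22, adjusted p = 9.35e-05), from 9.19 ± 0.79 to 51.0 ± 12.1 CPM (SD, n = 3). Kif7, a ciliary kinesin that regulates the Gli proteins, rose by 2.02 (SE 0.26, adjusted p = 0.000605), from 3.02 ± 0.48 to 9.60 ± 1.90 CPM. Of 10 genes of Gli processing 1 rose and 3 fell. Spop, an adaptor for the breakdown of Gli proteins, fell by 1.46 (SE 0.20, adjusted p = 0.000856), and Prkacb, a catalytic subunit of protein kinase A, fell by 1.09 (SE 0.14, adjusted p = 0.000705). Of 7 tested genes known as targets elsewhere, 4 rose and 3 fell. The largest rises were those of Bcl2, an inhibitor of apoptosis, at 1.86 (SE 0.20, adjusted p = 0.000311), and Nkx2-2, a homeodomain factor, at 1.77 (SE 0.24, adjusted p = 0.000846).

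**Figure D5:**
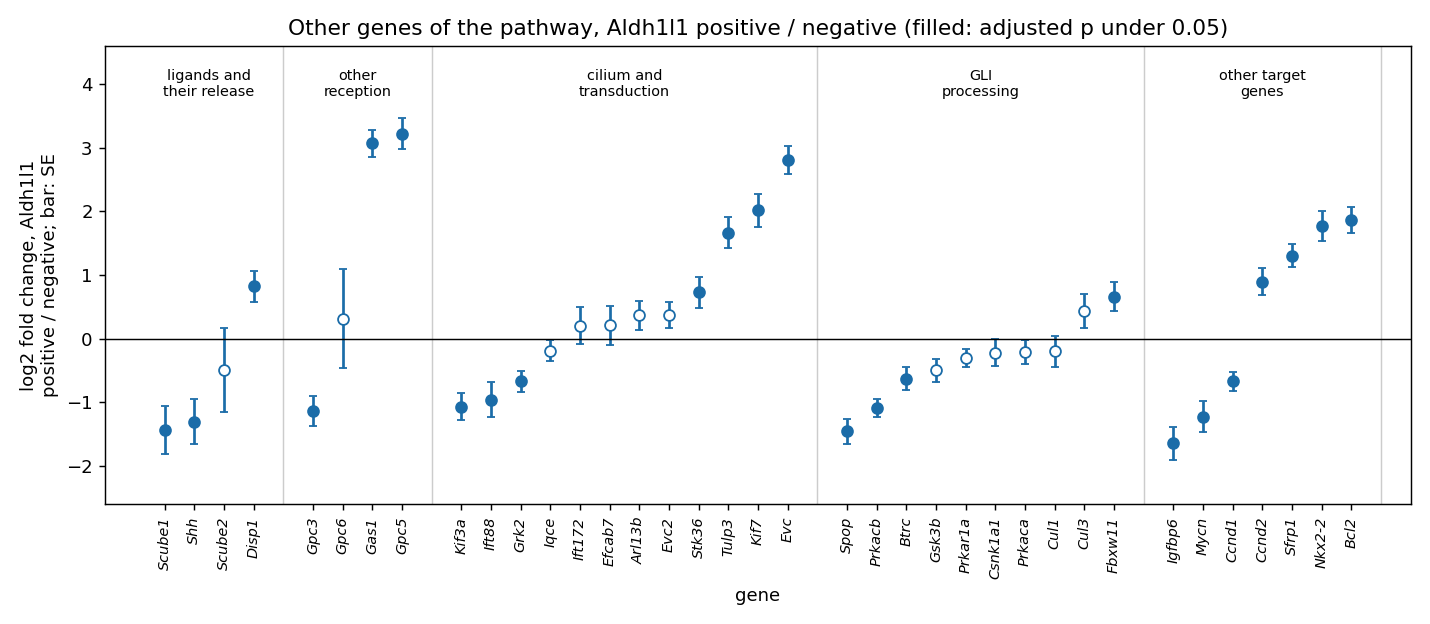
log2 fold change of the positive against the negative fraction of Aldh1l1-NuTRAP mice (vertical axis) with its standard error, for the 37 other pathway genes tested (horizontal axis), in 5 lists. Filled points passed an adjusted p of 0.05. Each list holds genes on both sides of 0, with Gas1, Gpc5 and Evc the highest and Igfbp6, Spop and Scube1 the lowest.

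The 250 bases before the annotated start of 7 members, all but Gli1 and Boc, were read from RefSeq promoters of GRCm38.p6. For Ptch1 and Sufu that start lies outside the gene coordinates given above. Ptch1 and Cdon are shown because they held the most and the fewest CpG dinucleotides, and because Ptch1 was higher and Cdon lower in astrocyte-tagged RNA. Capitals mark CpG. The Ptch1 stretch is chr13:63565736-63565985 (minus strand) and the Cdon stretch chr9:35451826-35452075 (plus strand).
Ptch1: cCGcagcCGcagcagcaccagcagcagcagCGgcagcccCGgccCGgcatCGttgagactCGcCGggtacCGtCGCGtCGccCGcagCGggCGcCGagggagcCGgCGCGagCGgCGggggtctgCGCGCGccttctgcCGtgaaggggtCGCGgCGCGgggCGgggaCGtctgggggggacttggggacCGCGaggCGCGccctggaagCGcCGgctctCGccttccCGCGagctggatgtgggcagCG
Cdon: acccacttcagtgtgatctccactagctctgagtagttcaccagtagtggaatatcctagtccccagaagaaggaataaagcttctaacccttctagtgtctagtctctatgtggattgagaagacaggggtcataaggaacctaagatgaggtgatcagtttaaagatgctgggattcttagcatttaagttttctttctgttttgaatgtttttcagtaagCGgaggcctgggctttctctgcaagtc

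Ptch1 held 41 CpG and Cdon 1, and the other members held 34 (Gli3), 28 (Hhip), 22 (Gli2), 15 (Smo) and 8 (Sufu), beside a median of 6 over all promoters of that table. GC content was 78.4% for Ptch1 and 42.8% for Cdon. Hhip, which was not called, lay among the CpG-rich members, so this count did not order the members by their change. The Gli binding motif GACCACCCA was searched on both strands and was found in none of the 7, beside 0.225% of 32851 promoters of that length. Its core ACCACCC, which lies within the longer motif, was found in Gli2 alone, 205 bases before the start on the opposite strand, beside 3.92% of all promoters. Capitals mark it in the Gli2 stretch, chr1:119053620-119053869 (minus strand). A match is a description of these letters and not a binding site.
Gli2: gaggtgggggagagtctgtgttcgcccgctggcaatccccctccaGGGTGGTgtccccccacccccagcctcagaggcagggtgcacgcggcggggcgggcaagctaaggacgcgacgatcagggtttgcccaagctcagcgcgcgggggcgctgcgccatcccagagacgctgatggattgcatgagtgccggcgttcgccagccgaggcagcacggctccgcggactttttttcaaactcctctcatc

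Over the 6 group means, the genes with the profiles most like those of the members were found by the root mean square difference of centred log2 levels, over 14132 genes. For Ptch1 these were Pdgfd (0.13) and Nebl (0.18), for Smo 1700003M07Rik and Tlr3 (both 0.12), for Gli1 Trp53bp2 (0.058) and Add3 (0.065), for Gli2 Celsr1 (0.088) and Nwd1 (0.098), and for Gli3 Id4 (0.098) and Slc13a5 (0.11). Id4 is a helix-loop-helix inhibitor and Slc13a5 a citrate transporter. For Cdon they were Reln (0.061) and Rbm33 (0.07). Reln is a secreted protein of neurons. Profiles by group medians kept 2 of 18 such neighbours, so single names depend on how libraries were summarised.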

How the data were processed

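TRAP RNA of 3 Aldh1l1-NuTRAP mice and 6 Cx3cr1-NuTRAP mice, and tissue RNA of 5 of these 6, were sequenced as directional polyA paired-end libraries. The deposited raw values are expected counts, made by the authors in Strand NGS by aligning reads to mm10 and assigning them to RefSeq genes, with no normalization. They were rounded before testing, since 81.4% of those above 0 were not whole (tolerance 0.001). The deposited table also holds log2 values, which the authors made by DESeq normalization, and these were not used here. Totals ranged from 8782235 to 25137834 counts in the Aldh1l1-NuTRAP libraries and from 4260949 to 26857866 in the others. They limit counting precision only, and the tests rest on the spread between mice.

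CPM were computed from library totals, and CPM per kb from the union of exons in GENCODE M21. A gene was tested where each library of at least 1 of the groups compared held over 20 counts. The test was the robust, two-sided quasi-likelihood test of edgeR 4.0.16 with TMM scaling in R 4.3.3, with Benjamini-Hochberg adjustment over all genes tested at 0.05. Only the groups compared entered a fit, and the line by fraction interaction used the positive and negative fractions of both lines. The script was tested on simulated data. Alternatives were other scaling, other filters, DESeq2 1.42.0, unrounded counts, all 6 groups in 1 fit, each mouse left out, and the mouse as a block. Leaving out mice 155 and 290 together was added after seeing the data.

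Libraries with the same number come from the same mouse per the labels. Their deviations from the group means correlated by over 0.1 in 3 of 3 pairs of Aldh1l1 positive and negative fractions, 3 of 6 pairs of Cx3cr1 positive fraction with either negative fraction or input, 5 of 6 pairs of negative fraction and input, and 0 of 5 pairs of input and whole tissue. The named pathway genes are Shh, Ihh, Dhh, Gas1 and the 2 genes of each list with the largest absolute log2 fold change among those called in the positive against the negative fraction of Aldh1l1-NuTRAP mice. Another gene fixed by this rule is not reported here. Disp1, Gpc3 and Igfbp6 were named after their values were seen. Profile neighbours are the 2 nearest genes of each member. The 9 genes and all lists were chosen with earlier results of these data known. Other steps used Python 3.11.15 with pandas 2.3.3, numpy 2.4.6 and, for figures, matplotlib 3.10.9.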

Additional observations from a re-analysis of the deposited data

Results flagged for a closer look

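Among 36 sets of 5 or 6 libraries, 6 held a library whose gap to its nearest neighbour was large for the range of its group, a test that chance alone meets in about 1 of 20 groups. Of these, 4 were the negative fraction of Cx3cr1-NuTRAP mouse 155, where Ptch1 (20.03 CPM), Sufu (2.97 CPM), Gli2 (2.62 CPM) and Gli3 (6.53 CPM) lay below the other 5 mice, whose lowest levels were 42.7, 7.77, 5.01 and 8.97 CPM. The positive fraction of the same mouse was the highest for Cdon, at 20.1 CPM against at most 14.8 CPM in the others. Ptch1 in whole tissue of mouse 210 was the lowest, at 58.9 CPM against at least 93.0 CPM, in the library with the fewest counts. The part of the transcript length tilt of mouse 155 in these levels was not tested.

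For 7 genes the log2 ratio of the positive to the negative fraction differed between the lines by edgeR's interaction test. The difference, Aldh1l1 minus Cx3cr1, was 3.28 for Ptch1, 3.13 for Gli3, 2.83 for Gli2, 2.78 for Smo, 2.37 for Gli1, 1.18 for Boc and -0.93 for Cdon. Each of these 7 had an adjusted p under 0.05 without each mouse in turn.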

How the results depend on the processing

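Of 1060 refitted values of single members, 973 kept their direction and their side of the threshold, 40 no longer passed, 25 newly passed and 22 changed direction. In the positive against the negative fraction of Aldh1l1-NuTRAP mice the count of higher members ranged from 4 to 7 and that of lower members from 0 to 1 over the fits without a mouse, in which 14.8% to 34.6% of all genes were higher and 12% to 34.3% lower. In Cx3cr1-NuTRAP mice the count of members higher in the positive than in the negative fraction was 0 with no filter, with all 6 groups in 1 fit and with the mouse as a replicate block (7.44%, 15.7% and 9.28% of all genes), and 0 to 1 over the fits without a mouse (8.34% to 15% of all genes), and the count of lower members was 1 to 7 over those fits, in which 4.12% to 15.7% of all genes were lower. In the positive fraction against input 1 member, Smo, was higher when at least 100 counts were required, as were 28.3% of all genes. In the negative fraction against input the lower members were 0 with library totals, with no filter and with all 6 groups in 1 fit (3.64%, 1.08% and 0.429% of all genes). They were 3 with DESeq2 (9.38%), 6 with the replicate block (19.5%) and 0 to 3 over the fits without a mouse (0% to 14.8%). In input against whole tissue 1 member, Hhip, was lower with all 6 groups in 1 fit, as were 9.43% of all genes, and Smo and Ptch1 lost their calls. The pairing by mouse moved no other count of called members by over 1.5 times, and the cause of these changes was not tested.

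No value that passed the threshold changed direction, but 10 values short of it did in at least 1 refit. Hhip between the positive fractions of both lines was -0.021 with library totals and -0.014 to 0.45 over the fits without a mouse, and in the interaction -0.034 and -0.0072 to 0.49. Over those fits Sufu ranged from -0.28 to 0.035 in the Cx3cr1 positive against the negative fraction. Between the negative fractions Cdon ranged from -0.17 to 0.067, Hhip from -0.036 to 0.16, Sufu from -0.60 to 0.0051 and Gli2 from -0.15 to 0.068, and with all 6 groups in 1 fit Cdon was 0.010 and Gli2 0.020. Gli1 ranged from -0.14 to 0.032 in the negative fraction against input, and in input against whole tissue Sufu ranged from -0.017 to 0.14 and Gli1 from -0.14 to 0.15, with 0.043 under the replicate block.

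With scaling by TMM in place of library totals, 50 of 54 group levels moved by less than 1 SD. The others were Boc, Gli1, Gli2 and Gli3 in the Aldh1l1 positive fraction, at 38.6, 26.6, 28.0 and 56.4 CPM. In that fraction Smo rose as well, from 58.1, 150 and 131 CPM to 79.4, 193 and 168 CPM in mice 290, 293 and 294. Its move stayed under 1 SD because its spread between mice was wide.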
